A study of Mus musculus with 30 samples.

Results

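Genes of cholesterol and fatty acid synthesis were followed across the neural retina of Abca4-/-Rdh8-/- mice, a strain prone to photoreceptor damage in bright light. The set was a fixed list of 31 gene names covering the enzymes of both pathways, their regulators and the proteins that move cholesterol. All 31 were found among 42439 gene identifiers and all 31 passed the filter on low counts in both experiments. The list was not chosen on any fold change, although results of these data were known when it was drawn up.

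RNA sequencing covered 30 libraries in 10 groups of 3, all from Abca4-/-Rdh8-/- mice of both sexes on a C57BL/6J background, aged 4 to 6 weeks. In the mixture experiment, retinas of mice given BMT (bromocriptine, metoprolol and tamsulosin) or MDB (metoprolol, doxazosin and bromocriptine) before light were set beside retinas of mice given light after the DMSO vehicle, and of mice given no light. In the single-drug experiment the pretreatments were bromocriptine (BRM), metoprolol (MTP), tamsulosin (TAM) or doxazosin (DOX), with light and no-light groups of its own. Bromocriptine activates D2-type dopamine receptors, metoprolol blocks beta-1 receptors, and tamsulosin and doxazosin block alpha-1 receptors. Drugs were injected 30 min before 30 min of light at 10000 lux, and retinas were taken 24 h later. Drug without light was not among the groups, so an effect of a drug by itself cannot be told apart from an effect on the response to light. No injection or harvest time is recorded for the no-light groups. An effect of the vehicle injection therefore cannot be told apart from an effect of light. The labels do not say whether libraries of a group came from separate animals, so p-values measure the spread between these libraries.

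Total counts per library ranged from 18.5 to 25.8 M in the mixture experiment and from 12.0 to 22.2 M in the single-drug experiment. Markers fitted the retina: the summed level of 6 rod genes was at least 22980 CPM (counts scaled to a common library size) in every library. Transcripts of lens fibre cells differed widely within groups. Their score, an average of log2 CPM over 6 lens genes, spanned -0.36 to 8.29. It reached 6 in 12 of 30 libraries, among them all MDB and all BRM libraries.

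Cholesterol is built from acetyl-CoA through mevalonate, isoprenoid units, squalene and lanosterol, and the last enzymes convert the first sterol ring system into cholesterol. When sterols in the endoplasmic reticulum run low, the escort protein encoded by Scap carries the SREBP factors, encoded by Srebf1 and Srebf2, to the Golgi, where they are released to raise these genes; the proteins of Insig1 and Insig2 hold them back. Surplus sterols also act through liver X receptors, which raise the exporters Abca1 and Abcg1. Photoreceptor outer segments are rich in membrane lipid and are renewed continually.

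Promoters were read at RefSeq starts, which need not be the start of the transcript that was counted. Windows from 250 bases before to 50 after the start (RefSeq, GRCm38.p6) were found for 24 of the 31 genes, 32 windows in all. The Ebp window is shown because Ebp gave one of the clearest responses to light, and the Hmgcs1 window because it alone held the sterol regulatory element searched for. Both are written 5′ to 3′ on the gene's strand, with matches to TCACNCCAC or CCAAT on either strand in capitals. The Ebp window lies at chrX:8193463-8193762 on the minus strand, at the start of the main counted transcript, and the Hmgcs1 window at chr13:119690101-119690400 on the plus strand. The counted Hmgcs1 transcript starts further on, at 119690462 in the deposited files, outside that window.
Ebp: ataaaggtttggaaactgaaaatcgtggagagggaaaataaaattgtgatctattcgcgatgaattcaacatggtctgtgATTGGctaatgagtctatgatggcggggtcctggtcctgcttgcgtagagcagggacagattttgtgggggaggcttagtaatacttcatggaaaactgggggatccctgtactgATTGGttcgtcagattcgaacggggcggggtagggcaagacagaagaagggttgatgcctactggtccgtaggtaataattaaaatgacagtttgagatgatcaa
Hmgcs1: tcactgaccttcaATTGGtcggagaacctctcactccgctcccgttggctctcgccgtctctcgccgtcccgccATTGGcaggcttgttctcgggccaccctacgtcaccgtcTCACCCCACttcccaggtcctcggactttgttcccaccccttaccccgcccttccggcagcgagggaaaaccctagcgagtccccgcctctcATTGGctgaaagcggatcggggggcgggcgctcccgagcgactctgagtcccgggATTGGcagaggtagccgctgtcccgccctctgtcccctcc
The Ebp window held 2 CCAAT boxes and no TCACNCCAC. The Hmgcs1 window held 4 CCAAT boxes and 1 TCACNCCAC, which did not overlap them. TCACNCCAC, searched on both strands, occurred in 1 of 32 windows of the listed genes and in 1.24% of 32851 windows of all genes. CCAAT occurred in 62.5% of their windows, against 37.4% of all windows. The GC box GGGCGG occurred in 75% of theirs and 35.7% of all, and the E-box CACGTG in 21.9% of theirs and 7.15% of all. The RefSeq windows of Pmvk began at minor transcripts and are not shown.

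Levels per transcript length were compared with the authors' FPKM values, which scale fragments by transcript length and library size, summed over the transcripts of a gene. Scd2, a stearoyl-CoA desaturase that makes monounsaturated fatty acids, was the most abundant, with group means of 83.5 to 128.8 FPKM. Hmgcs1, which makes HMG-CoA, followed with group means of 52.3 to 72.0 FPKM, and Fdps, which makes farnesyl diphosphate, with 42.6 to 51.6 FPKM. At the low end were the exporter Abca1, with group means of 2.79 to 5.99 FPKM, and Scd1, the paralog of Scd2, with 3.41 to 4.42 FPKM. Their order differed between groups. Ebp ranged over 11.7 to 32.1 FPKM and Pmvk over 24.8 to 63.0 FPKM.

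**Figure D1:**
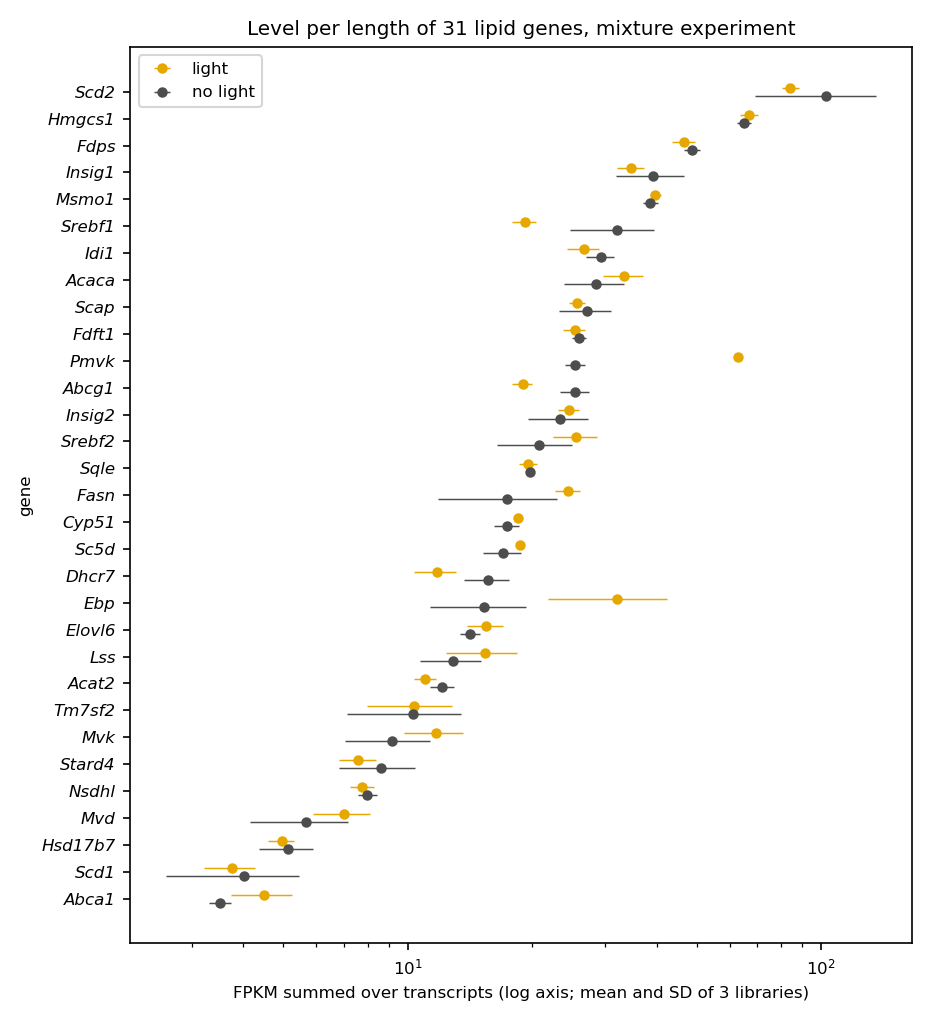
Level of each of the 31 genes as FPKM summed over transcripts (log axis), in the light and no-light groups of the mixture experiment. Points are means and bars SD of 3 libraries. Scd2 stands at the top and Abca1 and Scd1 at the low end, and Pmvk and Ebp show the widest separation of the groups.

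Some of the listed genes differed between light and no-light retinas, in both directions. In the mixture experiment, Pmvk, Ebp and Acaca rose and Srebf1, Abcg1 and Dhcr7 fell, 6 of 31 genes called at an adjusted p under 0.05 (edgeR quasi-likelihood test, Benjamini-Hochberg over all genes tested). Among all 16007 genes tested, 13.2% were called, 7.75% higher and 5.47% lower. In the single-drug experiment 11 of 31 were called. Pmvk, Ebp, Cyp51, Sc5d, Idi1, Stard4 and Abca1 rose, and Srebf1, Abcg1, Scap and Dhcr7 fell. There 24% of 16249 genes were called, 11.4% higher and 12.6% lower. With libraries of a lens-fibre score under 6 alone, the single-drug experiment gave 7 calls, against 21.9% of all genes. Whether the listed genes differ from genes at large in this was not tested.

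**Figure D2:**
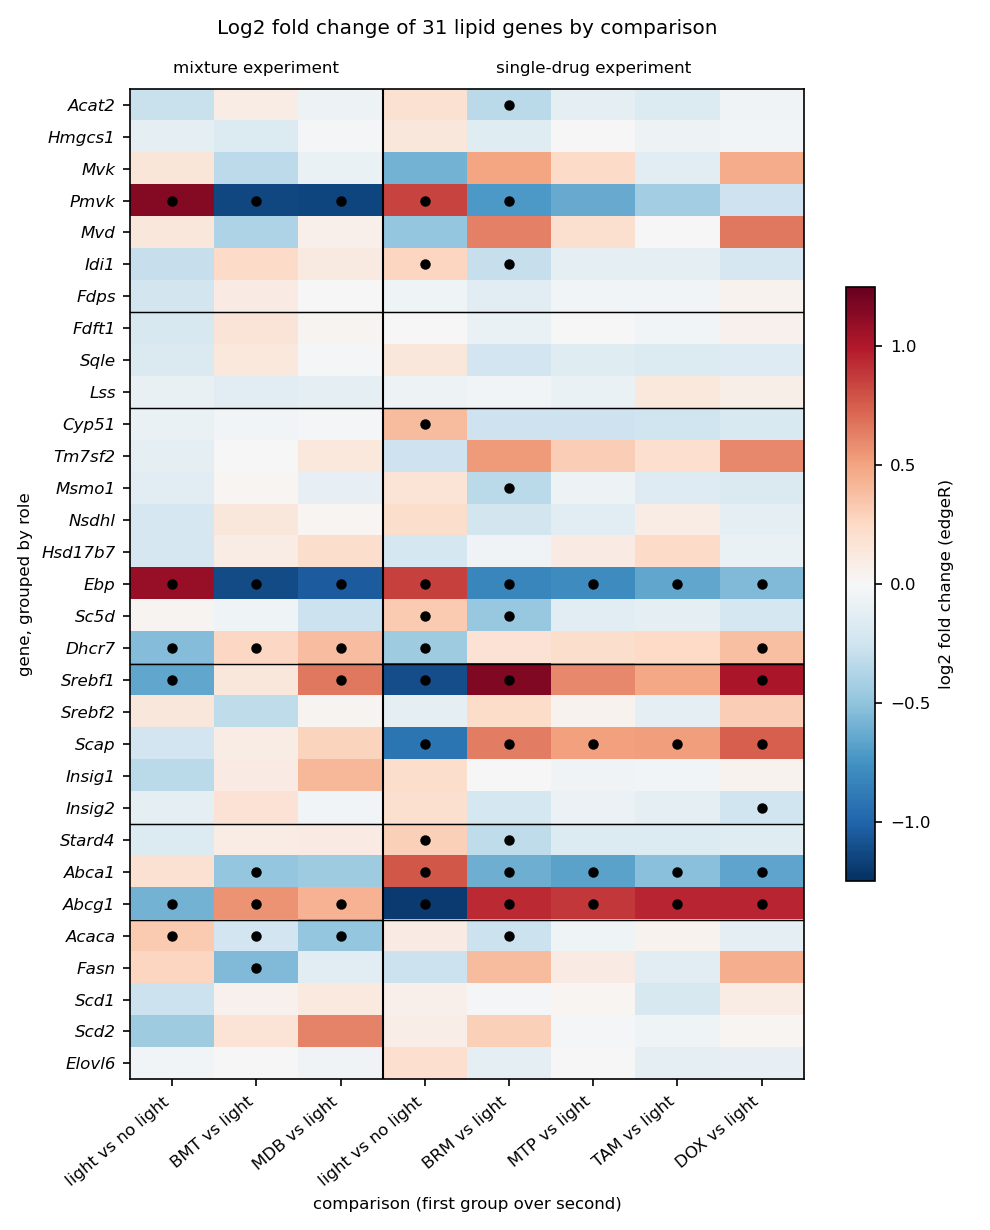
Log2 fold change of each gene (rows, grouped by role) in 8 comparisons (columns); red is higher and blue lower in the group named first, and a dot marks an edgeR adjusted p under 0.05. Pmvk, Ebp and Abcg1 have opposite colours in the light comparison and in most drug comparisons of the same experiment, which share the light libraries.

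The clearest rises were in 2 enzymes far apart in the pathway. Pmvk encodes phosphomevalonate kinase, which phosphorylates mevalonate phosphate. It had 61.5, 61.7 and 67.2 CPM after light, against 27.7, 28.1 and 30.3 CPM without light in the mixture experiment. The lowest light library lay far above the highest no-light library. The log2 fold change was 1.15 ± 0.10 (SE, edgeR adjusted p = 3.3e-05). Single-drug libraries had 49.8, 46.6 and 58.8 CPM after light, against 30.6, 28.4 and 27.3 CPM without light, a log2 fold change of 0.85 ± 0.22 (edgeR adjusted p = 0.012). Ebp encodes the sterol isomerase that moves a double bond in the late steps. It had 46.0, 38.4 and 37.5 CPM after light, against 17.5, 19.6 and 20.1 CPM without light in the mixture experiment (log2 fold change 1.09 ± 0.10, edgeR adjusted p = 5.1e-05). Ebp in the single-drug experiment had 34.6, 33.8 and 40.7 CPM after light, against 21.7, 18.7 and 19.7 CPM without light (log2 fold change 0.86 ± 0.16, edgeR adjusted p = 0.0014). The groups did not overlap for either gene in either experiment.

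Other enzymes of the early steps moved less. Of the 7 genes from Acat2 to Fdps, Pmvk alone was called in the mixture experiment, and Pmvk and Idi1 in the single-drug experiment. Mvk, the kinase that acts just before Pmvk, had a log2 fold change of 0.16 ± 0.15 in the mixture experiment and -0.59 ± 0.27 in the single-drug experiment, and was not called in either. A minor Mvk transcript, ENSMUST00000125650, was in the authors' deposited table of the single-drug experiment with an adjusted p of 0.028 for their F test. Its log2 fold change over light in the authors' deposited table was 1.29 for no light, -5.40 for BRM, -0.75 for MTP, -1.76 for TAM and 0.31 for DOX. That transcript held 9.24% of Mvk counts in the experiment. Mvd, which acts just after Pmvk, had 0.14 ± 0.18 and -0.48 ± 0.21, also without a call. Idi1 encodes the isomerase of the isoprenoid units. In the mixture experiment it had 59.9, 69.9 and 71.0 CPM after light, against 86.4, 76.6 and 82.3 CPM without light, and in the single-drug experiment 90.8, 93.6 and 79.2 CPM after light, against 72.7, 73.8 and 71.8 CPM without light. All light libraries were below the no-light libraries in the mixture experiment and above them in the single-drug experiment. Its log2 fold changes were -0.29 ± 0.10 (edgeR adjusted p = 0.075) and 0.27 ± 0.08 (edgeR adjusted p = 0.018). The single-drug call was lost in 5 of 16 alternatives, among them the compared groups alone, with an adjusted p of up to 0.109 over all of them. The squalene and ring-closing enzymes Fdft1, Sqle and Lss were not called in either experiment. Only 36.6% and 30.95% of Lss counts in the 2 experiments came from protein-coding transcripts.

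The enzymes that convert lanosterol to cholesterol moved in both directions. Beside Ebp, Dhcr7, which makes cholesterol in the final reduction, fell. It had 21.3, 24.9 and 24.2 CPM after light, against 32.2, 34.9 and 35.4 CPM without light in the mixture experiment (log2 fold change -0.54 ± 0.08, edgeR adjusted p = 0.00087). Dhcr7 in the single-drug experiment had 23.1, 22.5 and 28.0 CPM after light, against 31.3, 34.3 and 34.8 CPM without light (log2 fold change -0.45 ± 0.09, edgeR adjusted p = 0.0029). So Ebp and Dhcr7, which act close together in the pathway, changed in opposite directions with no overlap between groups. Cyp51, the lanosterol demethylase, had 69.7, 78.4 and 73.0 CPM after light and 51.8, 58.3 and 58.0 CPM without light in the single-drug experiment, with a log2 fold change of 0.40 ± 0.10 (edgeR adjusted p = 0.0074). Its log2 fold change was -0.09 ± 0.08 in the mixture experiment. Sc5d was called in the single-drug experiment at 0.33 ± 0.11 (edgeR adjusted p = 0.046). That call was lost in 11 of 16 alternatives, among them RLE scaling, no filter and 5 of 6 fits that left out a library. Msmo1, Nsdhl, Hsd17b7 and Tm7sf2 were not called. Tm7sf2 overlaps Vps51 on the same strand, so its counts are uncertain. Of the listed genes, Srebf1, Scap, Acaca, Fdft1 and Mvd overlap protein-coding genes on the opposite strand. Whether reads of those genes entered their counts was not tested.

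Among the regulators, Srebf1 fell in both experiments. It had 53.3, 51.3 and 62.7 CPM after light, against 69.6, 100.2 and 92.1 CPM without light in the mixture experiment (log2 fold change -0.65 ± 0.15, edgeR adjusted p = 0.016). Srebf1 in the single-drug experiment had 37.2, 32.4 and 52.8 CPM after light, against 99.8, 91.9 and 72.0 CPM without light (log2 fold change -1.11 ± 0.25, edgeR adjusted p = 0.0044). The call in the mixture experiment was lost in 4 of 17 alternatives, among them the fits without light replicate 1, light replicate 2 or no-light replicate 3. Scap had 61.7, 54.6 and 74.4 CPM after light, against 121.0, 126.3 and 112.9 CPM without light in the single-drug experiment, a log2 fold change of -0.92 ± 0.15 (edgeR adjusted p = 0.00044). Scap libraries overlapped in the mixture experiment, and the log2 fold change was -0.24 ± 0.10 (edgeR adjusted p = 0.17). Srebf2, Insig1 and Insig2 were not called in either light comparison.

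Both exporters moved in the single-drug experiment, in opposite directions. Abcg1 had 41.5, 35.7 and 44.9 CPM after light, against 94.9, 94.0 and 91.3 CPM without light, a log2 fold change of -1.20 ± 0.15 (edgeR adjusted p = 0.00011). Abcg1 in the mixture experiment had 55.5, 54.4 and 63.2 CPM after light, against 80.8, 85.8 and 93.6 CPM without light (log2 fold change -0.59 ± 0.09, edgeR adjusted p = 0.00097). Abca1 had 47.2, 56.7 and 49.5 CPM after light, against 36.6, 29.9 and 23.2 CPM without light in the single-drug experiment (log2 fold change 0.77 ± 0.15, edgeR adjusted p = 0.0018). Its log2 fold change in the mixture experiment was 0.19 ± 0.13, without a call. Stard4, a cytosolic sterol carrier, was called in the single-drug experiment at 0.29 ± 0.10 (edgeR adjusted p = 0.047). That call was lost in 13 of 16 alternatives, among them RLE scaling, no filter and every fit that left out a library.

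Of the fatty acid enzymes, Acaca, the carboxylase that makes malonyl-CoA, rose in the mixture experiment. It had 199.6, 207.5 and 220.2 CPM after light, against 177.1, 160.3 and 162.9 CPM without light (log2 fold change 0.33 ± 0.07, edgeR adjusted p = 0.0082). Its log2 fold change in the single-drug experiment was 0.11 ± 0.09 and was not called. Fasn, Scd1, Scd2 and Elovl6 were not called in either light comparison.

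**Figure D3:**
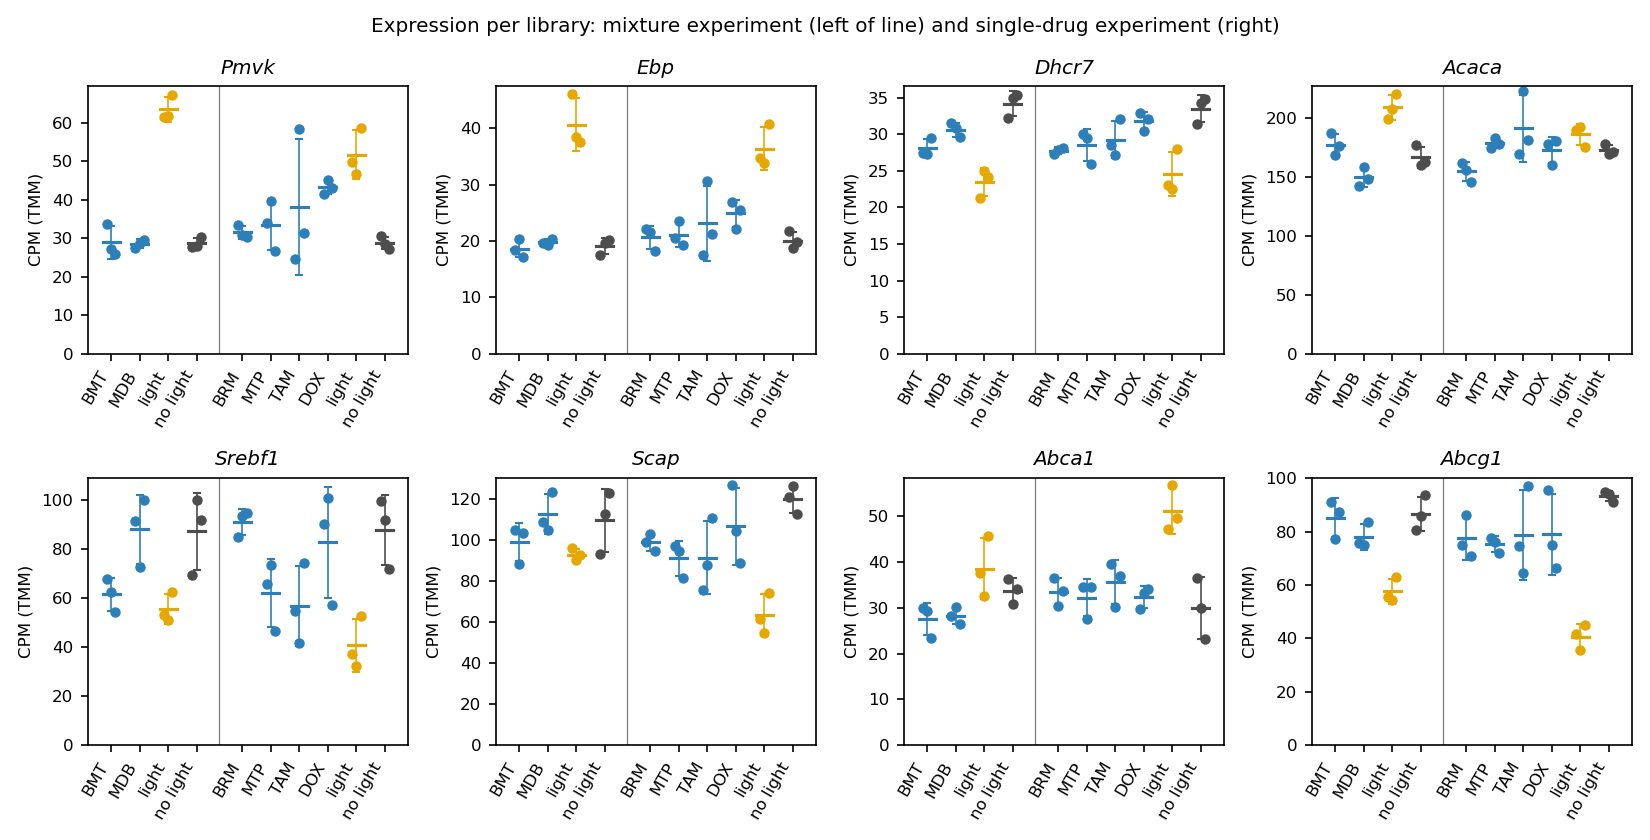
CPM (TMM-scaled) in each library for 8 genes, with the mean (line) and SD (bar) of 3 libraries per group. The light libraries stand highest for Pmvk and Ebp and lowest for Dhcr7 and Abcg1 among group means in both experiments, and 1 TAM library of Pmvk lies among the light libraries.

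The light effects of the 2 experiments were then compared in 1 fit of all 30 libraries. None of the 31 genes, and none of 16645 genes, was called for the difference (edgeR); 15 of 31 had an unadjusted p under 0.05, against 15.1% of all genes. DESeq2 called 5 of 31, against 2.46% of all genes, and limma voom called 11 of all genes. These 5 were Idi1, Cyp51 and Acat2, higher in the single-drug experiment, and Abcg1 and Scap, lower there. For Idi1 the difference was 0.56 ± 0.12 on the log2 scale (edgeR adjusted p = 0.081), the smallest p of the set. The median log2 fold change of the 31 genes was -0.14 in the mixture experiment and 0.11 in the single-drug experiment, against medians over all genes of 0.01 and 0.02. In the mixture experiment 22 of 31 genes were negative, and 3 had all light libraries above and 12 all below the no-light libraries. In the single-drug experiment 18 were positive, with 12 above and 6 below. Groups did not overlap for 30.3% of all genes in the mixture experiment and for 40.4% in the single-drug experiment. The sign of small changes depended on the measure. In the mixture experiment Hmgcs1 had means of 183.1 CPM after light and 199.5 CPM without, but 67.0 and 65.2 FPKM. Fdps was lower after light in both measures, with 48.8 against 57.2 CPM and 46.5 against 48.7 FPKM.

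**Figure D4:**
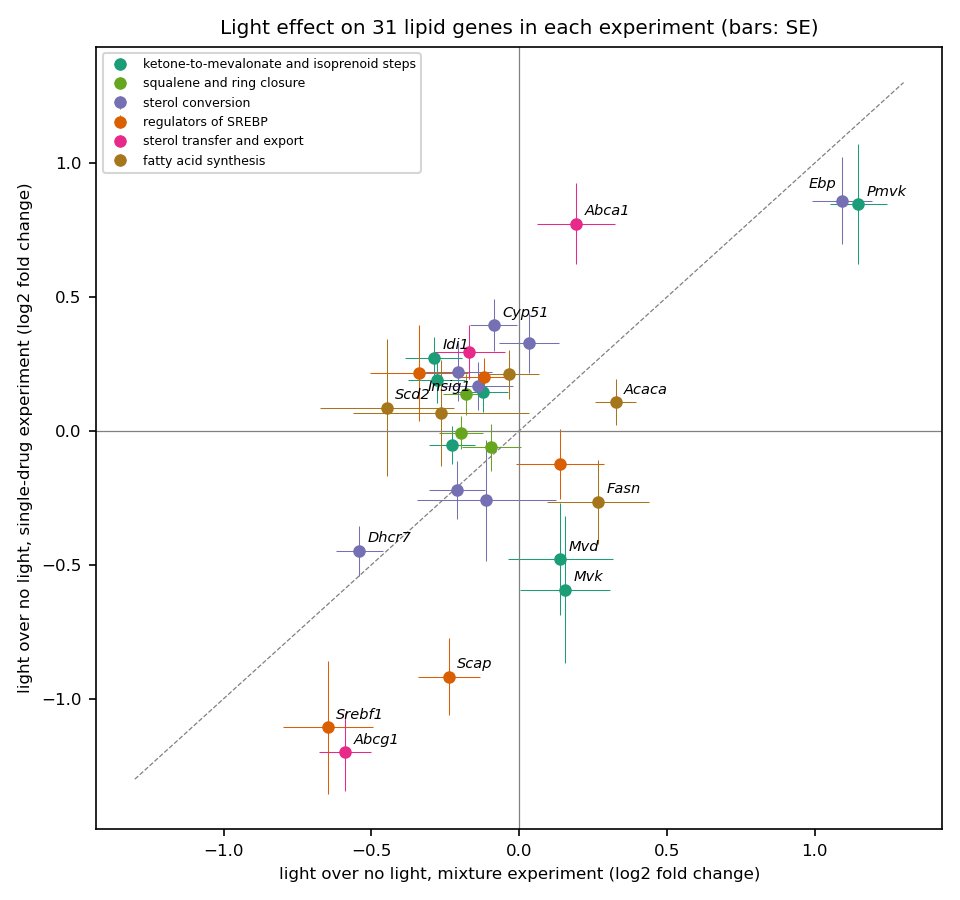
Light effect (log2 fold change, light over no light) of each gene in the mixture experiment (x axis) and the single-drug experiment (y axis), coloured by role; bars are SE and the dashed line marks equal effects. Pmvk and Ebp lie together at the upper right, Abcg1 and Srebf1 at the lower left, and Idi1 lies above 0 on 1 axis and below it on the other.

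Pretreatment was compared with light alone. Every such comparison uses the same light libraries as the light effect, so opposite signs between the comparisons are not independent. BMT retinas differed in 7 of 31 genes, against 17.7% of all genes, 7.96% higher and 9.78% lower. Abcg1 and Dhcr7 were higher and Pmvk, Ebp, Abca1, Acaca and Fasn lower. Of 17 alternatives, the call was lost in 12 for Dhcr7, which turned to -1.02 in 1 more, in 12 for Acaca, in 8 for Fasn and in 7 for Abca1. The calls of Abcg1, Pmvk and Ebp were kept in all 17. The count fell to 3 without BMT replicate 3, light replicate 1 or light replicate 3, and to 4 without BMT replicate 2 or light replicate 2. The share of all genes called in the fits that left out a library is not given here. Whether other genes lost calls likewise was not compared. MDB retinas differed in 6 of 31, against 9.63% of all genes, 3.7% higher and 5.93% lower. Srebf1, Abcg1 and Dhcr7 were higher and Pmvk, Ebp and Acaca lower. Of 15 alternatives, the MDB call was lost in 2 for Dhcr7 and in 6 for Srebf1. With the compared groups alone, MDB gave 11 calls, against 14.8% of all genes. Markers of cell types moved here as well: all 6 rod genes were higher after BMT (median log2 fold change 0.86) and 5 of 6 after MDB (0.65). Of the Müller glia genes 2 rose and 1 fell for each mixture, and 1 endothelial gene fell for each. Of the microglia and macrophage genes 1 rose and 1 fell for each. The 6 lens genes had a median of 1.09 for BMT and 2.70 for MDB, with no call. The part of these shifts in the changes of the listed genes was not tested.

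Pmvk had 33.7, 27.2 and 25.8 CPM after BMT and 27.5, 28.7 and 29.7 CPM after MDB, all far below the light libraries. The log2 fold changes over light were -1.13 ± 0.10 for BMT (edgeR adjusted p = 4.9e-05) and -1.15 ± 0.10 for MDB (edgeR adjusted p = 4.4e-05). Ebp had 18.4, 20.3 and 17.2 CPM after BMT and 19.6, 19.2 and 20.4 CPM after MDB, with log2 fold changes of -1.12 ± 0.10 and -1.04 ± 0.10 over light. In the authors' deposited table of the mixture experiment, the main Pmvk transcript had a log2 fold change over light of -1.08 for BMT and -1.12 for MDB, and that of Ebp -1.02 for BMT and -0.92 for MDB. No other listed gene was in that table of 521 transcripts. Abcg1 had 91.2, 77.3 and 87.4 CPM after BMT and 75.6, 74.9 and 83.6 CPM after MDB, all above the light libraries. Srebf1 had 67.8, 62.7 and 54.4 CPM after BMT, overlapping the light libraries, and 91.7, 72.7 and 100.3 CPM after MDB, all above them. The Srebf1 call for MDB was lost with the lens-fibre score as a covariate, and without light replicate 1 or 2 or MDB replicate 1 or 3.

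Among the single drugs, BRM retinas differed in 12 of 31 genes, against 14.4% of all genes, 7.08% higher and 7.32% lower. Srebf1, Abcg1 and Scap were higher, and Pmvk, Ebp, Acaca, Abca1, Stard4, Idi1, Acat2, Msmo1 and Sc5d lower. The count fell to 3 without light replicate 2, to 4 without BRM replicate 2, to 5 without BRM replicate 3 and to 7 without light replicate 1. For this and the other drugs, such counts have no share of all genes beside them. They do not show whether the listed genes lost calls more than other genes. MTP retinas differed in 4 of 31, against 10.3% of all genes, 5.37% higher and 4.91% lower. TAM retinas differed in 4 of 31, against 10.6% of all genes, 6.6% higher and 4% lower. For both drugs Abcg1 and Scap were higher and Abca1 and Ebp lower. Leaving out light replicate 2 gave 2 genes for each drug. For TAM, leaving out light replicate 1 gave 2 and leaving out TAM replicate 3 gave 1. DOX retinas differed in 7 of 31, against 11.9% of all genes, 6.79% higher and 5.06% lower. Srebf1, Abcg1, Scap and Dhcr7 were higher and Insig2, Abca1 and Ebp lower. That count fell to 2 without DOX replicate 1 or light replicate 2, to 3 without light replicate 1 and to 4 without DOX replicate 2. Rod markers rose with every single drug: 5 of the 6 genes were higher after BRM (median log2 fold change 0.89) and all 6 after MTP (1.02), TAM (1.09) and DOX (0.96). Of the 4 endothelial genes, 1 was lower for each drug. Of the 5 Müller glia genes, 1 was higher for each drug, and 1 was lower for BRM, MTP and TAM and 2 for DOX. Of the 6 microglia and macrophage genes, 1 was higher for each drug and 1 lower for BRM and TAM. The lens genes had a median of 1.61 for BRM, where 1 of the 6 was higher, and -0.27 for MTP, -0.13 for TAM and 0.55 for DOX, without a call. The part of these shifts in the changes of the listed genes was not tested.

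Abcg1 was the gene called in all 6 drug comparisons under every alternative. It had 75.1, 86.4 and 71.0 CPM after BRM, 77.8, 76.1 and 72.0 CPM after MTP, 74.5, 64.5 and 97.2 CPM after TAM and 95.7, 74.9 and 66.4 CPM after DOX. Log2 fold changes over light were 0.93, 0.89, 0.95 and 0.96, each ± 0.15 (edgeR adjusted p = 0.0017, 0.0024, 0.0014 and 0.0026). In the authors' deposited table of the single-drug experiment its main transcript had log2 fold changes over light of 0.91, 0.87, 0.91 and 0.92. Of the listed genes, that table of 622 transcripts held only Abcg1 and the minor Mvk transcript, and neither Pmvk nor Ebp. Ebp had 22.1, 21.5 and 18.3 CPM after BRM, 20.6, 23.5 and 19.3 CPM after MTP, 17.6, 30.6 and 21.2 CPM after TAM and 26.9, 22.2 and 25.6 CPM after DOX. All were below the light libraries, and TAM replicate 2 stood apart from the other two. The Ebp call was lost in 9 of 16 alternatives for DOX and in 5 of 16 for TAM, and in none for BRM or MTP. Pmvk had 33.3, 30.95 and 30.2 CPM after BRM, 33.9, 39.6 and 26.8 CPM after MTP, 24.7, 58.3 and 31.4 CPM after TAM and 41.6, 45.05 and 43.1 CPM after DOX. The TAM replicate with 58.3 CPM lay within the light range, and Pmvk was not called for MTP, TAM or DOX. Its call for BRM was lost in 9 of 15 alternatives, with an adjusted p of up to 0.136. The BRM calls of Acaca and Stard4 were lost in 12 and 11 of 15, the MTP call of Scap in 8 of 16, the TAM call of Abca1 in 7 of 16 and the DOX call of Insig2 in 9 of 16.

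Pretreated retinas were also set against no-light retinas. None of the 31 genes was called for any of the 6 pretreatments, and none of all genes was (edgeR). DESeq2 called none of the 31 either, but among all genes it called 13 for BMT, 22 for MDB, 381 for BRM, 3 for MTP, 7 for TAM and 11 for DOX. With limma voom the all-gene count was 1 for BRM and 0 for the other 5 pretreatments. Of the 31 genes, 5 had an unadjusted p under 0.05 for BMT (edgeR), against 6.3% of all genes, and 5 for MDB, against 10.3%. The counts were 3 for BRM (15.6% of all genes), 4 for MTP (8.59%), 6 for TAM (8.17%) and 3 for DOX (13%). Log2 fold changes were negative for 28 of 31 genes for BMT, 20 for MDB, 18 for BRM, 12 for MTP, 13 for TAM and 11 for DOX. Medians over all genes lay between -0.012 and 0.011. Whether the listed genes differ from genes at large in this was not tested. For Pmvk the log2 fold change over no light was 0.01 ± 0.10 for BMT and 0.59 ± 0.22 for DOX, and for Ebp -0.03 ± 0.10 and 0.31 ± 0.16. For Srebf1 it was -0.50 ± 0.15 for BMT and 0.02 ± 0.15 for MDB. In the single-drug experiment Srebf1 had group means of 62.0 CPM for MTP and 57.0 CPM for TAM. It had 91.1 CPM for BRM, 82.9 CPM for DOX and 87.9 CPM without light. Group means of Pmvk there were 31.5 CPM for BRM, 33.4 for MTP, 38.1 for TAM, 43.2 for DOX and 28.8 without light. A p that misses the threshold does not show that pretreated and no-light retinas were alike.

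Related genes outside the 31 were given by lists. For comparison with their counts, 13.2% of all genes were called in the mixture experiment (7.75% higher, 5.47% lower). The share was 24% in the single-drug experiment (11.4% higher, 12.6% lower). Whether a list differs from genes at large was not tested. Of 17 other fatty acid genes tested, 1 rose and 6 fell after light in the mixture experiment, and 2 rose and 5 fell in the single-drug experiment. Lpin1, a phosphatidate phosphatase, had 42.4 ± 1.13 CPM after light and 62.9 ± 3.05 CPM without light in the mixture experiment (SD, n = 3 each; log2 fold change -0.57 ± 0.06, edgeR adjusted p = 0.00012). Elovl2, which elongates polyunsaturated fatty acids, had -0.70 ± 0.13, and Me1, which supplies NADPH, -0.63 ± 0.13. These 3 genes had, in the single-drug experiment, -0.82, -0.93 and -0.87. Of 15 genes of export, storage and clearance, 1 fell in the mixture experiment, the lipoprotein receptor Scarb1 at -0.39 ± 0.11 (edgeR adjusted p = 0.033). In the single-drug experiment 1 rose and 5 fell, among them Scarb1 at -0.94, Npc1 at -0.44 and Rxra at -0.86; Npc1 and Rxra had -0.20 and -0.22 in the mixture experiment, without a call. Of 13 isoprenoid and SREBP genes, Pggt1b, a subunit of a protein prenyltransferase, fell at -0.47 ± 0.10 in the mixture experiment (edgeR adjusted p = 0.0080), and 3 fell in the single-drug experiment. Erlin2 and Pdss2 of that list were not called in the mixture experiment, at -0.10 ± 0.05 and 0.38 ± 0.21.

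Markers of cell types moved with light too. The 6 rod genes summed to 35120 to 43040 CPM after light, against 62130 to 73840 CPM without light in the mixture experiment, and to 22980 to 31730 CPM after light, against 69040 to 75050 CPM without light in the single-drug experiment; 5 and 6 of the 6 fell. In these bulk samples, fewer cells of a type and less RNA per cell cannot be told apart. The 5 Müller glia genes summed to 859.8 to 875.7 CPM after light, against 1648 to 2000 CPM without light in the mixture experiment, and 2 of the 5 fell and 1 rose. The 4 endothelial genes summed to 169.8 to 214.5 CPM after light, against 84.8 to 89.0 CPM without light, and 1 of the 4 rose. The 6 microglia and macrophage genes summed to 18.7 to 25.7 CPM after light and 21.2 to 22.6 CPM without light, and 1 rose and 1 fell. The 5 pigment epithelium genes summed to 228.1 to 994.7 CPM after light and 236.4 to 596.5 CPM without light, and none was called. These sums of endothelial, microglia and pigment epithelium genes are from the mixture experiment. Müller glia genes in the single-drug experiment summed to 974.9 to 1111 CPM after light, against 1682 to 2039 CPM without light. Of them 1 rose and 1 fell. There 1 endothelial gene rose, 1 microglia and macrophage gene rose and 1 fell, and no pigment epithelium gene was called. Median log2 fold changes of the 5 Müller glia genes were -0.02 in the mixture experiment and 0.31 in the single-drug experiment. For the 4 endothelial genes they were 0.20 and 0.29. A sum can follow its most abundant genes, so these sums do not stand for every gene of a list. The 6 lens genes had a median log2 fold change of -2.29 in the mixture experiment and -0.02 in the single-drug experiment, and none was called. No marker of these lists was at 0 in any library. The part of these shifts in the changes of the listed genes was not tested.

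The listed genes were ranked by how often their highest library in a group was that of highest lens-fibre score. Scd2 and Insig1 came first, each with 9 of 10 groups. Hsd17b7 and Sqle followed with 7, and the lowest were Acat2, Dhcr7 and Msmo1 with 1 and Scap with 0. With 3 libraries per group, some such matches arise by chance. Whether the counts of Scd2 and Insig1 exceed chance, or the counts of genes at large, was not tested. Scd2 had 420.3, 734.2 and 436.5 CPM without light in the mixture experiment, where the library of 734.2 CPM had a lens-fibre score of 8.29 and the others 1.97 and 2.09. After MDB, with scores of 6.54 to 6.88, it had 708.5, 525.5 and 553.4 CPM. For Ebp and Abcg1 the highest library was that of highest score in 3 and 2 of 10 groups. The part of lens content in the values of Scd2 and Insig1 was not tested.

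**Figure D5:**
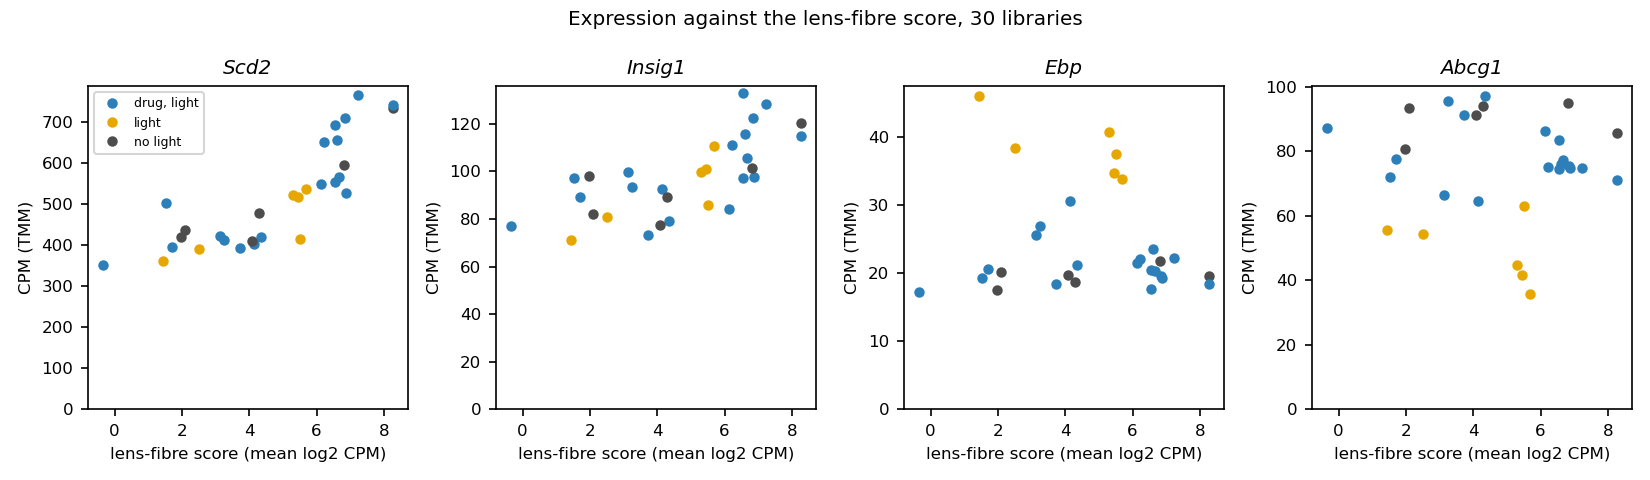
CPM of 4 genes against the lens-fibre score of the library (mean log2 CPM of 6 lens genes) in all 30 libraries, coloured by drug with light, light and no light. Scd2 and Insig1, the listed genes most often highest in the library of highest score, are highest at high scores. Ebp and Abcg1 separate the light libraries, whose scores run from 1.45 to 5.68, from the others.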

How the data were processed

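Expected counts per transcript, made by the authors with eXpress and deposited unscaled, were summed per gene identifier over all transcripts and rounded. Per the submitters' processing notes, Trimmomatic, TopHat2 and Bowtie2 were used with GRCm38.p3, and edgeR and limma for testing; no version numbers are given in the sources used here. Deposited FPKM values of eXpress gave levels, and the authors' TMM-scaled FPKM an alternative test with limma on log2(FPKM + 1). The authors' deposited tables also hold log2 fold changes and the adjusted p-value of their F test. Each experiment, performed and analysed apart per the labels, was fitted by itself with all its groups: filterByExpr, TMM and the quasi-likelihood test of edgeR 4.0.16 in R 4.3.3, two-sided, called at an adjusted p under 0.05 over all genes tested, in 15 comparisons. CPM values are TMM-scaled, and the lens-fibre score averages log2 CPM with a prior count of 1. The SE is the absolute log2 fold change over the square root of F.

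The members and lists were chosen with earlier results of these data known. All 31 members are described, and of each other list the 3 genes whose adjusted p for light was lowest in the mixture experiment. Alternatives were size factors by RLE, no filter, DESeq2 1.42.0, limma voom (limma 3.58.1), a replicate block, the compared groups alone, protein-coding transcripts alone, FPKM of the leading transcript, the lens-fibre score as a covariate, each library left out, and, chosen after seeing the data, leaving out libraries with a lens-fibre score of at least 4 or of at least 6. The tests were checked on simulated counts.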

Additional observations from a re-analysis of the deposited data

How the results depend on the processing

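The light calls in the mixture experiment ranged over 5 to 7 of 31 genes without 1 library each, in the single-drug experiment over 8 to 10, and for MDB over 4 to 6. The other ranges were 3 to 5 for BMT, 3 to 12 for BRM, 2 to 5 for MTP, 1 to 4 for TAM, 2 to 10 for DOX and 0 to 2 for the difference between experiments. Shares of all genes called in these fits are not given here, so the ranges do not set the listed genes apart from others. For BMT, 4 genes were called in place of 7 with FPKM of the leading transcript, with the compared groups alone, with the replicate block, and with lens-fibre scores under 4 or under 6. With scores under 6, the single-drug light effect gave 7 in place of 11, and DOX 3 in place of 7. Scores under 4 were tried first; they gave 6 for light in the mixture experiment and 0 for BMT over no light, and left no comparison of the single-drug experiment with both groups. MDB gave 11 in place of 6 with the compared groups alone, BRM 7 in place of 12 with no filter, and TAM 2 with FPKM and 1 with the compared groups alone in place of 4. DESeq2 called 5 for the difference between experiments in place of 0. The cause was not tested. Shares of all genes are given above for the single-drug light effect with scores under 6 and for MDB with the compared groups alone. They are also given for DESeq2 on the difference between experiments. The other changed counts have no such share beside them. For Dhcr7 after BMT, FPKM of the leading transcript gave a log2 fold change of -1.02 (limma adjusted p = 0.415), with 6.87 ± 5.95 FPKM after BMT and 9.25 ± 0.847 FPKM after light (SD, n = 3). Over 57 called gene results, 712 alternative values kept their call and direction, 194 lost the call and 1 reversed. Correlations of same-numbered deviations ran from -0.216 to 0.556 in the mixture experiment (2 of 18 over 0.1) and from -0.262 to 0.437 in the single-drug experiment (13 of 45 over 0.1). Among the pairs of groups compared, all 3 were over 0.1 for TAM and no light alone (0.391, 0.175 and 0.134), where the replicate block also called 0 of 31 genes; the numbers were not taken to pair the other groups compared. FPKM, coding-only and compared-groups alternatives were not run for the difference between experiments.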
